A study of Mus musculus with 4 samples.

Results

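The 10 genes described here are the mouse TEAD transcription factors Tead1, Tead2, Tead3 and Tead4, their coactivators Yap1 and Wwtr1 (TAZ), the Hippo kinase Lats2, and the target genes Amotl2, Ccn1 and Ccn2. They were taken by symbol from the annotation GENCODE M21 on the assembly mm10, as 10 of 21911 protein-coding genes, and each locus is the gene body with 50 kb on each side. The data are DNase-seq of 3T3-L1, an immortalized mouse embryo fibroblast line that can be differentiated into adipocytes, with the source strain labelled C57BL/6J and no treatment named. The 4 libraries belong to 2 biosamples of 2 technical libraries each. The authors pooled the libraries of a biosample before they called peaks and hotspots, so each biosample gives 1 list of each kind and no test between biosamples could be made.

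DNase-seq maps DNA that the nuclease DNase I cuts readily, as at active promoters and enhancers. In the Hippo pathway, the kinase MST activates the kinase LATS, which phosphorylates the coactivators YAP and TAZ and keeps them out of the nucleus. When the pathway is off, YAP and TAZ enter the nucleus and bind TEAD factors, which carry the DNA-binding domain and recognise the motif CATTCC. In fibroblasts this switch is known for its response to cell density, cell shape and matrix stiffness, and YAP and TAZ are known to hold back adipocyte differentiation.

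The peak lists held 298793 windows in biosample 1 and 97430 in biosample 2, and those on chromosomes 1 to 19, X and Y were each 150 bp wide. Each peak has a score, the authors' own value for it, which is given below, in many places with its percentile in its list (100 the highest). Scores are not compared between lists, and the median score was 65 in biosample 1 and 33 in biosample 2. Read depth was unknown, since the lists hold no read counts. A promoter peak of all 8 fibroblast markers was present in both lists, beside 51.9% of all genes. The median percentile of their strongest ones was 96.8 in biosample 1 and 91.0 in biosample 2. Over all genes called in both lists, the same medians were 95.5 and 86.4. Thy1 was the lowest of the 8 markers, at percentiles 82.9 and 18.6. None of the 3 markers each of epithelium, blood and skeletal muscle had a promoter peak in either list. The endothelial markers Pecam1 and Cdh5 had one in both lists (scores 112 and 40 for Pecam1, 84 and 33 for Cdh5) and Kdr in neither, and the part of such cells or signal in the values below was not tested.

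Peaks at the start sites of these genes often held the TEAD motif itself, so the open DNA of 6 promoters is printed first. Each is the strongest biosample 1 promoter peak of the gene with a TEAD core outside exons, without its exon bases and joined with the biosample 2 peak where it meets one, read from mm10 on the strand of the gene. Capitals mark the TEAD core, CATTCC or its reverse complement GGAATG, and the AP-1 site, TGAGTCA or TGACTCA. The cAMP response element TGACGTCA would be in capitals too, and none of these pieces holds it.
Tead3 promoter, chr17:28350916-28351065 (-): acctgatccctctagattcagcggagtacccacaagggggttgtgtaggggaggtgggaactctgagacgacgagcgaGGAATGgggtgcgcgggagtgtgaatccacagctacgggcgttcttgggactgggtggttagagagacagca
Yap1 promoter, chr9:8004597-8004765 (-): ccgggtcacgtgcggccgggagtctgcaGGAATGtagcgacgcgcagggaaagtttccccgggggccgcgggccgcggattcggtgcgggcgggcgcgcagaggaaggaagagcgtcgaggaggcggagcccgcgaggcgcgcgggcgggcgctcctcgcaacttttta
Wwtr1 promoter, chr3:57576216-57576445 (-): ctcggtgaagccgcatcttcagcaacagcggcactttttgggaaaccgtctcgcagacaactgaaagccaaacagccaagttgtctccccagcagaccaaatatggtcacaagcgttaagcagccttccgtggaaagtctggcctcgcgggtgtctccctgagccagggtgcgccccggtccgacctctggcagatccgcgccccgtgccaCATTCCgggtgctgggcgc
Amotl2 promoter, chr9:102718816-102718965 (+): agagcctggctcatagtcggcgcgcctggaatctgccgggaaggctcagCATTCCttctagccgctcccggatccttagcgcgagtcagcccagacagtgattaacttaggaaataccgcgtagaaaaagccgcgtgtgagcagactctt
Ccn1 promoter, chr3:145649982-145650125 (-): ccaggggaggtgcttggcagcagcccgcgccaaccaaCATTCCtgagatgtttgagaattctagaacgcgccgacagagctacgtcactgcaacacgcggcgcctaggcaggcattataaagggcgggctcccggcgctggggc
Ccn2 promoter, chr10:24595336-24595441 (+): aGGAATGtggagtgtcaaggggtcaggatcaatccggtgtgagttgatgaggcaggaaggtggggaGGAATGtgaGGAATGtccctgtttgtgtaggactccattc
The Ccn2 piece held 3 TEAD cores on the gene's strand, which begin 105, 40 and 31 bases before the most upstream start site. The last pair is separated by 3 bases, and the first core lies outside the biosample 1 peak, in the biosample 2 peak alone. The single core of the Ccn1 piece begins 107 bases before the start site, that of Yap1 141 bases, that of Tead3 170 bases and that of Wwtr1 324 bases before. The Amotl2 piece lies outside exons, with its core 2193 bases after the most upstream of 9 start sites. It met no biosample 2 peak and had a score of 102 (percentile 78.2), below the strongest Amotl2 promoter peaks of 140 and 136. For Tead1, Tead4 and Lats2 the matches lay in annotated exons and are not printed, and Tead2 had none.

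The second set shows distal peaks, which lie outside the promoter window of every protein-coding gene. It gives, of the strongest peak per gene that was present in both lists and held a TEAD core, those with more than 1 core or with an AP-1 site as well, on the plus strand of mm10.
Tead3 distal, chr17:28311796-28311945 (+): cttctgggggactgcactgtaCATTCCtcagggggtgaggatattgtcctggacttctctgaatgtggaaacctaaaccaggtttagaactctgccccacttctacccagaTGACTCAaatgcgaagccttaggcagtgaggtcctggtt
Lats2 distal, chr14:57760536-57760685 (+): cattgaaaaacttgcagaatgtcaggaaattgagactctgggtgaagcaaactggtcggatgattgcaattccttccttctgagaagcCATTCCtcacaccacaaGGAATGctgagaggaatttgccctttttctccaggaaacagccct
Amotl2 distal, chr9:102779596-102779745 (+): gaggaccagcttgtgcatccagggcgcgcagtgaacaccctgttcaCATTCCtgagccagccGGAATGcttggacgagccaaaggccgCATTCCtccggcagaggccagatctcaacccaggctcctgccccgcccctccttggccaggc
Ccn1 distal, chr3:145676336-145676485 (+): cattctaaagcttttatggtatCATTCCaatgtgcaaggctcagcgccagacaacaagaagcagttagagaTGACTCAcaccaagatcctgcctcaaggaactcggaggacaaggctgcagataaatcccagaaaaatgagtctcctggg
Ccn2 distal, chr10:24581156-24581305 (+): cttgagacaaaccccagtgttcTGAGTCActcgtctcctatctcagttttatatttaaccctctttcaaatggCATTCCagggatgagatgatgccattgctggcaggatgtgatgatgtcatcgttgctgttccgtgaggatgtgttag
The Amotl2 peak held 3 TEAD cores, with first bases at 102779642, 102779658 and 102779684. The Lats2 peak held 2 cores in opposite orientations, which begin at 57760624 and 57760641. The peaks of Tead3, Ccn1 and Ccn2 each held 1 TEAD core and 1 AP-1 site. AP-1 is a factor of the FOS and JUN family that is known to share many enhancers with TEAD. A match of letters is a description of the window and does not show that a factor was bound.

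A promoter peak, defined as a peak within 1000 bp of any protein-coding start site of the gene, was present in both lists for 9 of the 10 genes. By the same rule, 51.9% of all protein-coding genes had one. In biosample 1 all 10 genes had a promoter peak (62.6% of genes), and in biosample 2 all but Tead1 did (52.0% of genes). Hotspots, the wider regions the authors called with a q value, met the promoter window of the same number of genes in both lists, 9 of 10, against 52.2% of genes. The strongest promoter peak passed percentile 90 in 6 genes in biosample 1 (41.4% of genes), in 3 genes in biosample 2 (20.9% of genes) and in 3 genes in both lists (20.9% of genes). Among the 11370 genes with a promoter peak in both lists, the median percentile of the strongest one was 95.5 in biosample 1 and 86.4 in biosample 2. Wwtr1, Amotl2 and Ccn1 lay above both medians, and the other 7 genes lay below the median in each list where they had a peak, as the dot plot of promoter percentiles shows.

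**Figure D1:**
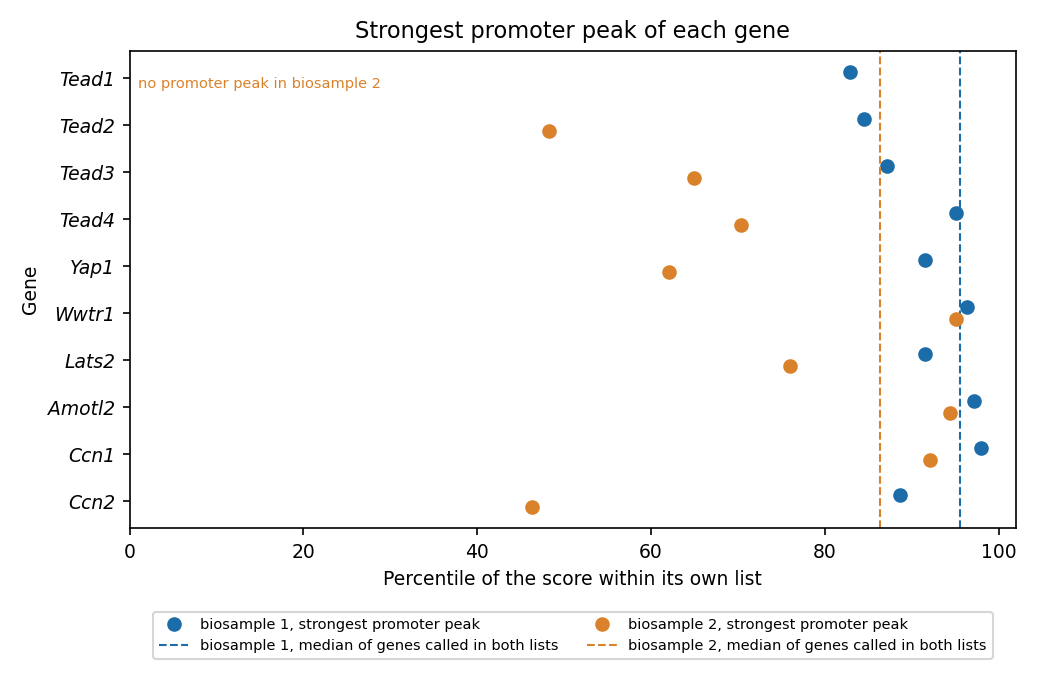
Percentile of the strongest promoter peak of each gene within its own list (horizontal axis) for biosample 1 and biosample 2 (1 pooled list each, points). Dashed lines are the medians of genes with a promoter peak in both lists, 95.5 and 86.4. Wwtr1, Amotl2 and Ccn1 lie above both lines and Tead1 has no promoter peak in biosample 2.

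The TEAD factors bind DNA, and the strongest promoter peak of each of the 4 genes lay below the medians just given. Tead1 (chr7:112679318-112906807, plus strand) had 4 promoter peaks in biosample 1, with scores of 95, 110, 82 and 101, the highest at percentile 82.9. All 4 lay at the most upstream, CpG-rich cluster of start sites, where the observed to expected CpG ratio was 1.01. Biosample 2 had neither a peak nor a hotspot there. The 6 other start sites, from 112691698 to 112759536, had none in either list. With a window of 2000 bp Tead1 counted as called in both lists, through a peak 1.42 kb from a start site in biosample 2. That peak had a score of 27 (percentile 37.7), and its partner in biosample 1 had 114 (percentile 85.1).

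Tead2 (chr7:45215753-45233644, plus strand) had its strongest promoter peak at a score of 113 in biosample 1 (percentile 84.5) and 32 in biosample 2 (48.3). It was the only one of the 10 genes with no TEAD core in any promoter peak in biosample 1. Tead3 (chr17:28331671-28350817, minus strand) reached 118 (87.2) and 42 (64.9), both at the same window upstream of its most upstream start site, which is printed above. Tead4 (chr6:128224288-128300823, minus strand) reached 135 in biosample 1 (95.1) and 46 in biosample 2 (70.3) at its upstream cluster of start sites. The peak of score 135 held 3 TEAD cores, and its partner in biosample 2 had a score of 40. The downstream start site of Tead4, at 128275577, had weaker peaks of 102 and 32. In both lists the order of the strongest promoter peaks of Tead2, Tead3 and Tead4 was the same, with Tead2 lowest and Tead4 highest.

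Of the coactivators, Wwtr1 had the stronger promoter peaks in both lists. Yap1 (chr9:7931999-8004596, minus strand) reached 127 in biosample 1 (percentile 91.5) and 40 in biosample 2 (62.0), at the start sites 8004588 and 8004596. Another start site of Yap1, at 8001703, had a peak of 52 in biosample 1 and none in biosample 2. Wwtr1 (chr3:57455649-57575910, minus strand) reached 138 (96.4) and 80 (95.1), the highest percentile of the 10 genes in biosample 2. Its printed promoter piece, further upstream, covers peaks of 133 and 44. The TEAD core of that piece lay in the biosample 1 peak alone, outside the biosample 2 peak.

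Lats2 phosphorylates YAP and TAZ and is itself a known YAP target. Its locus (chr14:57689662-57758388, minus strand) has 6 start sites, and the peaks favoured those in the middle. At 57744654 the strongest peak had a score of 127 in biosample 1 (percentile 91.5) and 45 in biosample 2. At 57746105 and 57746123 the scores were 125 and 51 (76.0 in biosample 2). The most upstream start site, 57758388, had 3 peaks in biosample 1, with scores of at most 61, and none in biosample 2. The start sites 57699890 and 57734300 had none in either list. With 1 start site per gene, the most upstream, Lats2 joined Tead1 as not called in both lists, which left 8 of 10 genes called, against 48.4% of all genes.

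The promoter peaks of the target genes Ccn1 and Amotl2 ranked higher in both lists than those of Ccn2. Ccn1 (Cyr61, chr3:145646976-145649981, minus strand) and Ccn2 (CTGF, chr10:24595442-24598683, plus strand) encode secreted matricellular proteins and are the usual reporters of YAP activity. Ccn1 reached 142 in biosample 1 (percentile 97.9) and 73 in biosample 2 (92.1), both at chr3:145649976-145650125, which holds the printed piece. Ccn1 had 3 promoter peaks in biosample 1 and 4 in biosample 2, the reverse of the order of the list lengths. The extra one, of score 42, met no biosample 1 peak. Ccn2 reached 121 in biosample 1 (88.7) and 31 in biosample 2 (46.3), the lowest percentile in biosample 2 among the 9 genes called there. Amotl2 (chr9:102716672-102733418, plus strand), an angiomotin family protein that binds YAP and holds it in the cytoplasm, reached 140 (97.2) and 78 (94.3), at different start sites in the 2 lists. The biosample 2 partner of the peak of 140 had a score of 70.

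A larger share of the promoter peaks of these genes than of promoter peaks at large held the TEAD core. It was present in 11 of 50 promoter peaks in biosample 1 (22.0%, 95% Wilson interval 12.8 to 35.2), against 8.41% of all 39812 promoter peaks. In biosample 2 it was present in 8 of 24 (33.3%, 18.0 to 53.3), against 7.74% of 21142. These intervals cover counting error only, peaks of 1 gene are not independent, and both lists read the same DNA, so the second share is no replicate of the first. AP-1 showed no such difference, with 3 of 50 (6.00%, 2.06 to 16.2) against 5.64% in biosample 1 and 0 of 24 against 5.25% in biosample 2, an upper bound of 13.8%.

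Counted by gene, 9 of 10 had at least 1 promoter peak with a TEAD core in biosample 1, against 23.4% of the 13725 genes with a promoter peak. In biosample 2 the count was 7 of 9, against 14.5% of 11392 genes. The members had more promoter peaks than most genes (median 4 against 3 in biosample 1, and 3 against 2 in biosample 2). Weighting all genes to the members' numbers of peaks raised the background to 34.5% and 18.5%. With the strongest promoter peak of each gene alone, a look added after these values were seen, 7 of 10 genes had a core in biosample 1 (7.83% of genes) and 4 of 9 in biosample 2 (7.06% of genes). The 4 were Tead3, Lats2, Ccn1 and Ccn2. The RefSeq promoter table for GRCm38.p6, which takes 250 bases before to 50 after a start and uses no peaks, matched 7 of the 10 genes, and 6 of these 7 had a core, against 16.6% of genes. A window of Tead3 in that table held 3 cores, and 0.131% of all promoters held 3 or more. The chart of TEAD core shares sets the promoter peaks beside the distal ones.

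**Figure D2:**
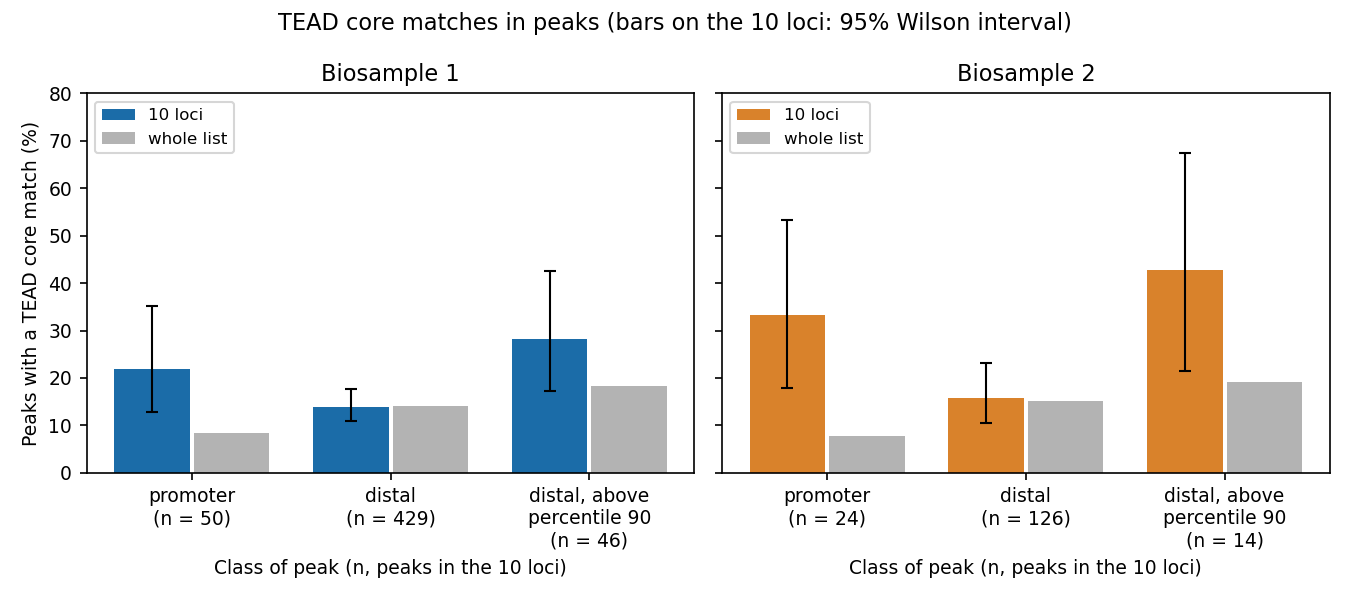
Share of peaks with a TEAD core match in percent (vertical axis) for promoter peaks, distal peaks and distal peaks above percentile 90, in biosample 1 and biosample 2. Coloured bars are the 10 loci with 95% Wilson intervals for counting error, and grey bars the whole list. The promoter bars stand at 22.0% and 33.3% over 8.41% and 7.74%, and the bars of all distal peaks are close to the whole list.

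Distal peaks were numerous around these genes. The 10 loci span 1625.647 kb and held 429 distal peaks in biosample 1 and 126 in biosample 2, besides 50 and 24 promoter peaks of the members and 19 and 15 at promoters of neighbouring genes. In biosample 1, 171 of the distal peaks lay in the gene bodies, 122 upstream and 136 downstream, and 55 lay inside another protein-coding gene. No data here tie a distal peak to the gene whose locus it lies in. All loci but that of Amotl2 reach a neighbouring protein-coding gene, such as Rassf10 for Tead1, Ppard and Fkbp5 for Tead3, Enpp1 for Ccn2 and 8 genes for Tead2.

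Density of distal peaks per 100 kb was above the median of all genes in 9 loci in biosample 1 and in 8 in biosample 2. That median and the shares of genes below include genes without a promoter peak. Density over only the genes with a promoter peak in both lists was not computed. Amotl2 had 57 distal peaks in biosample 1, or 48.8 per 100 kb against a median of 13.5 over genes, and 99.5% of genes had a lower density. In biosample 2 it had 10, or 8.57 per 100 kb against a median of 3.74, and 91.4% of genes were lower. Ccn1 was high in both lists, with 49 peaks (47.6 per 100 kb) and 17 peaks (16.5 per 100 kb), and 99.5% and 99.4% of genes were lower.

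Tead3 had 41 and 14 distal peaks (34.4 and 11.8 per 100 kb), Wwtr1 70 and 19 (31.8 and 8.63) and Tead4 53 and 17 (30.0 and 9.63). The share of genes with a lower density was 91.6% to 97.5% for these 3 genes over both lists. Ccn2 had 24 and 8 (23.2 and 7.75), and Tead1 64 and 25 (19.5 and 7.63). Yap1 had 23 and 6 distal peaks (13.3 and 3.48 per 100 kb), below the median of genes in both lists. Tead2, with 17 and 5, was close to it (14.4 and 4.24), and Lats2, with 31 and 5, was above it in biosample 1 (18.4) and below it in biosample 2 (2.96). The bar chart of distal density shows this order.

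**Figure D3:**
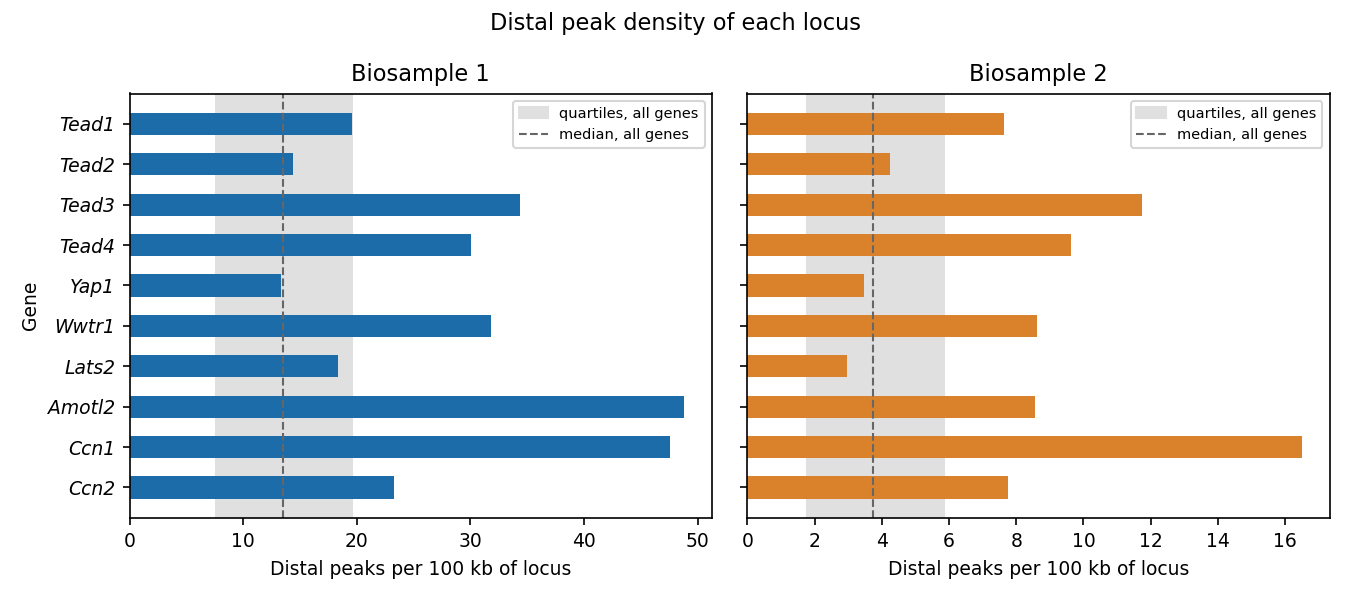
Distal peaks per 100 kb of locus (horizontal axis, bars from 0) for each gene in biosample 1 and biosample 2, with the quartiles (grey band) and the median (dashed line) of all protein-coding genes. Amotl2 and Ccn1 lead in biosample 1 at 48.8 and 47.6, Ccn1 alone leads in biosample 2 at 16.5, and Yap1 lies below the median in both.

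Distal peaks of these loci also ranked somewhat higher than distal peaks at large. Their median percentile was 57.8 against 46.9 for all distal peaks in biosample 1, and 56.5 against 46.3 in biosample 2. Above percentile 90 lay 46 of 429 (10.7%, 8.14 to 14.0) against 7.46% in biosample 1, and 14 of 126 (11.1%, 6.74 to 17.8) against 7.23% in biosample 2, where the interval includes the background. Amotl2 gave 11 of the 46 and Ccn1 9.

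The strongest distal peaks of the TEAD genes lay at various distances from the start sites. For Tead1 the highest score in biosample 1 was 146, at chr7:112663376-112663525, which lies 15.87 kb upstream and holds 1 TEAD core, with 72 in biosample 2 (percentiles 99.3 and 91.6). The highest in biosample 2 was 83, in an intron 144.55 kb from the most upstream start site, where biosample 1 had 143. So the gene with no promoter peak in biosample 2 had distal peaks above percentile 90 in that list. For Tead2 the strongest distal peak, 128 and 39, lay inside the gene Ccdc155 and held a CTCF motif, and none of the 5 distal Tead2 peaks in biosample 2 held a TEAD core.

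For Tead3 the strongest in both lists, 138 and 57, was the printed peak, 38.95 kb from the most upstream start site and beyond the end of the gene. For Tead4 the strongest, 146 and 86, lay downstream of the gene near a noncoding start site. Next came a pair of intronic peaks, 144 and 143 in biosample 1 and 81 and 73 in biosample 2, at 18.47 kb and 14.87 kb from the most upstream start site, each with 1 TEAD core.

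Yap1 had its strongest distal peak, 134 and 44, in an exon 1.12 kb from the most upstream start site, just outside the promoter window. No shared distal peak of Yap1 held a TEAD core. For Wwtr1 the strongest, 139 and 81, lay in an intron 74.02 kb from the most upstream start site and held neither TEAD nor AP-1 letters. For Lats2 it was the printed peak with 2 cores, 143 and 77, at percentiles 98.3 and 93.9. That peak lay 2.22 kb upstream of the most upstream start site of Lats2, which itself had only weak promoter peaks, in biosample 1 alone.

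For Amotl2 the printed peak with 3 cores, 142 and 80, lay 63.00 kb from the most upstream start site, near the outer end of the locus, and shared its score in biosample 1 with a peak at 47.06 kb (74 in biosample 2). Across all distal peaks of biosample 1, 2 or more cores were found in 1.26%. Ccn1 had its strongest distal peak in biosample 1, of score 146, at 35.31 kb upstream (77 in biosample 2). The strongest in biosample 2, of score 82, lay 1.93 kb upstream, where biosample 1 had 144. This last site held a CArG box, the motif of SRF, a factor that also responds to the actin cytoskeleton, which was found in 0.755% of all distal peaks of biosample 1. For Ccn2 the strongest in both lists was the printed peak, 131 and 55, at 14.21 kb upstream. A second peak with TEAD and AP-1 letters, of scores 94 and 19, lay 5.99 kb upstream of Ccn2 and held 2 cores. The maps of peaks along each locus show these sites.

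**Figure D4:**
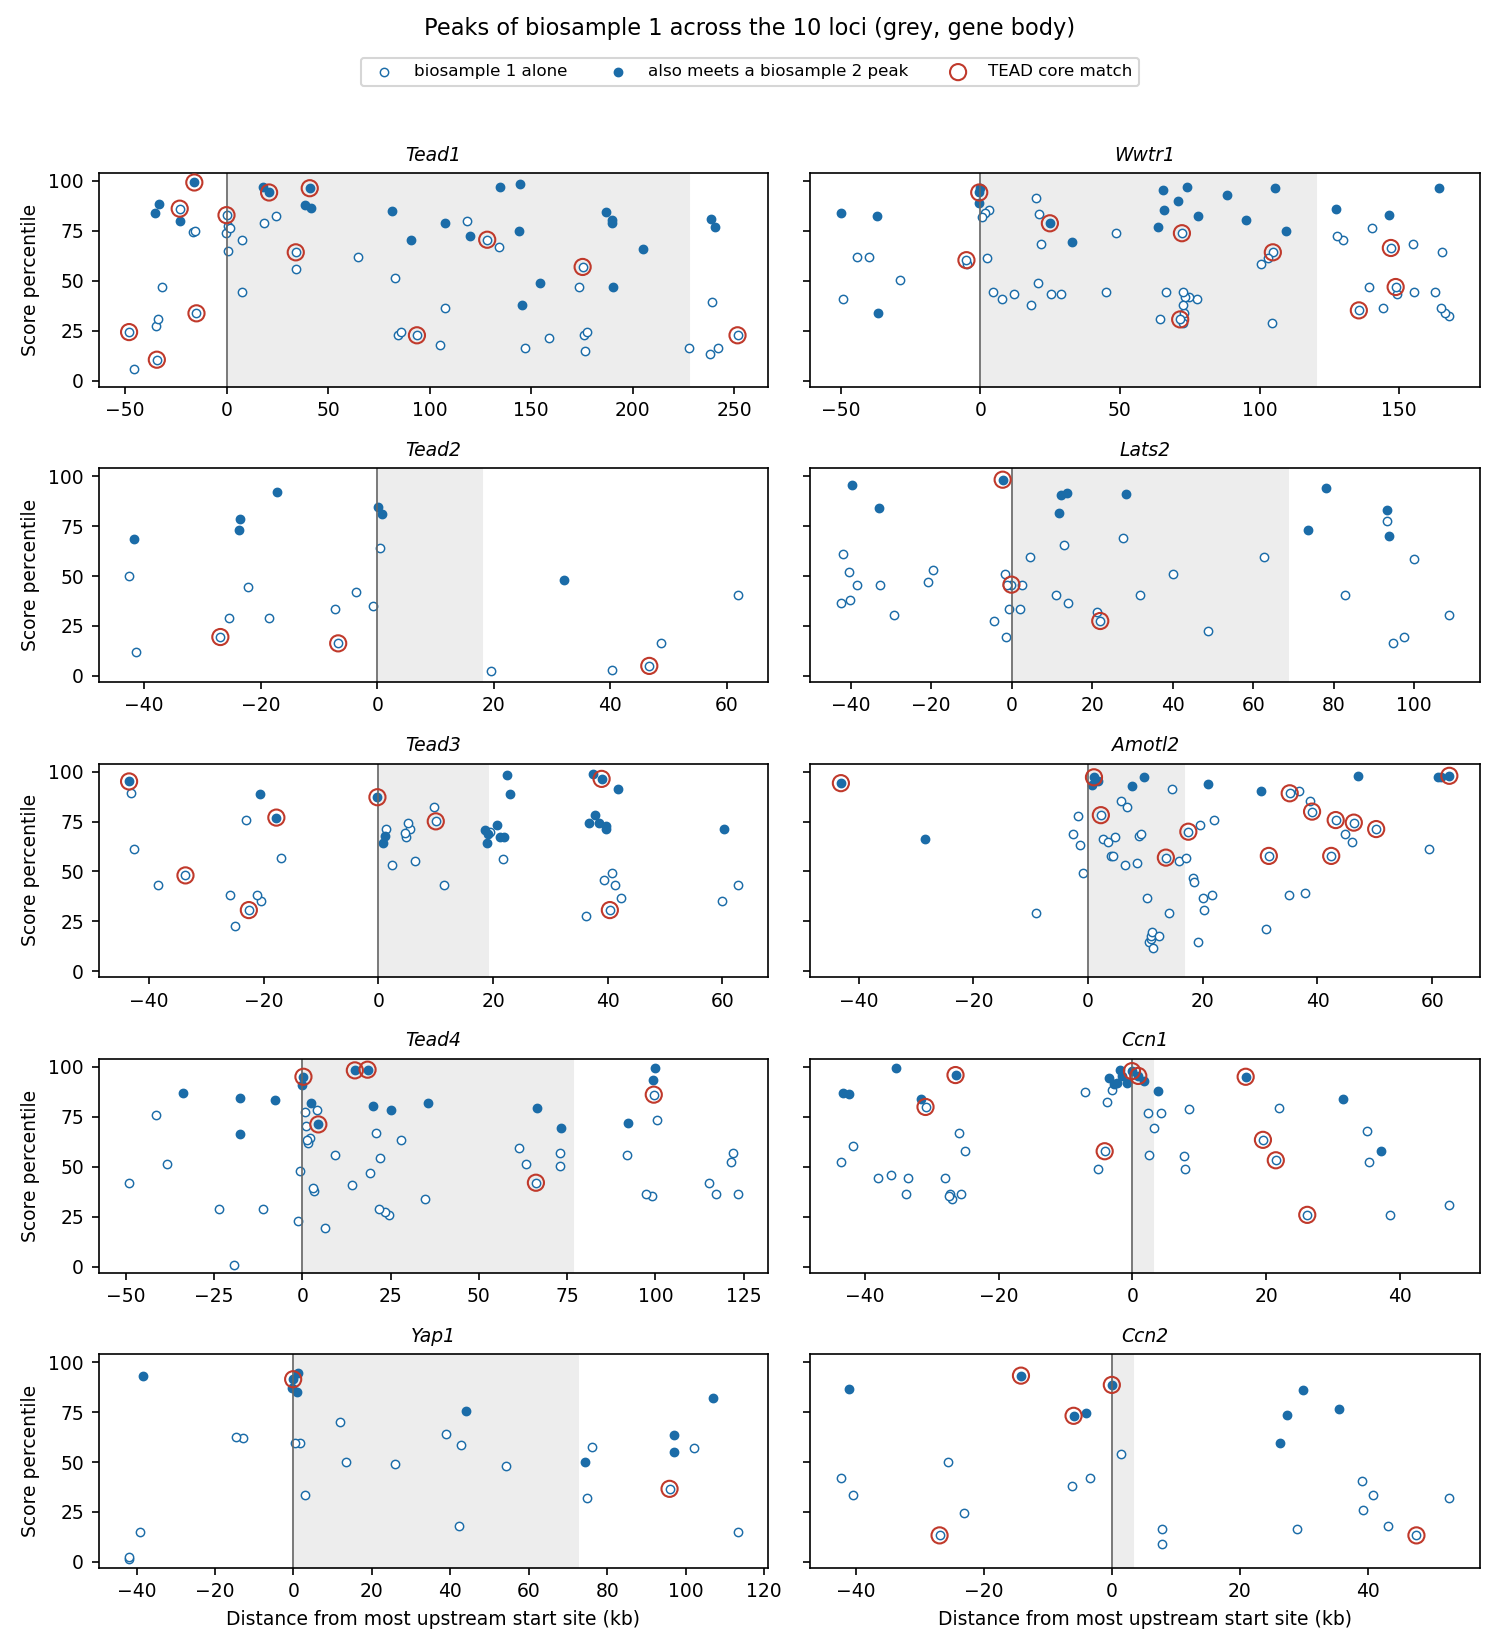
All peaks of biosample 1 in the 10 loci by distance from the most upstream start site in kb (horizontal axis) and score percentile (vertical axis). Filled points also meet a biosample 2 peak, red rings hold a TEAD core match, and grey marks the gene body. Ccn1 has a dense group of strong shared peaks around its start, and Amotl2 a long row of peaks of biosample 1 alone.

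Over all distal peaks, the TEAD core was no more frequent in these loci than elsewhere. It was present in 60 of 429 in biosample 1 (14.0%, 11.02 to 17.6) against 14.0% of all distal peaks, and in 20 of 126 in biosample 2 (15.9%, 10.5 to 23.2) against 15.1%. Among distal peaks above percentile 90 it was present in 13 of 46 (28.3%, 17.3 to 42.5) against 18.2%, and in 6 of 14 (42.9%, 21.4 to 67.4) against 19.2%. The first of these intervals includes the background and the second, on 14 peaks, does not. The intervals cover counting error only, and peaks of 1 locus are not independent. The 6 peaks of biosample 2 all meet peaks counted among the 13 of biosample 1, so the second share is no replicate of the first. AP-1 letters were present in 75 of 429 (17.5%, 14.2 to 21.4) against 19.995% in biosample 1, and in 29 of 126 (23.0%, 16.5 to 31.1) against 26.1% in biosample 2.

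Most distal peaks of biosample 2 recurred in biosample 1. By an overlap of at least 1 bp, 119 of 126 met a biosample 1 peak (94.4%, 89.0 to 97.3; all distal peaks 94.7%), and the other 7 lay in biosample 1 hotspots. In the other direction 120 of 429 met a biosample 2 peak (28.0%, 23.9 to 32.4; all distal peaks 27.9%). The centres of the 120 pairs were a median of 20 bp apart, and 89 were within 20 bp. Across these 120 pairs the percentiles in the 2 lists had a Spearman rho of 0.87, which is a description over sites that share loci and DNA.

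Within the upper bands of score, the share that recurred was lower in these loci than over all distal peaks, a difference that was not tested. Between percentiles 60 and 80 of biosample 1, 37 of 110 met a biosample 2 peak (33.6%, 25.5 to 42.9), against 49.5% of all. Between 80 and 100, 74 of 92 did (80.4%, 71.2 to 87.3), against 89.7%. The genes differed among themselves. Above percentile 60, 67.8% of all distal peaks recurred. Ccn2 (7 of 7), Tead2 (4 of 4) and Lats2 (5 of 7) lay above that share, on few peaks each. All other genes lay below it, from Tead1 (22 of 34, 64.7%) down to Wwtr1 (17 of 36, 47.2%) and Amotl2 (10 of 32, 31.3%). Without Amotl2 the shares were 38.7% (29.4 to 48.9) and 84.4% (74.7 to 90.9), the first interval below the 49.5% of all and the second including the 89.7%. The chart of sharing by score shows the 5 bands of percentile.

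**Figure D5:**
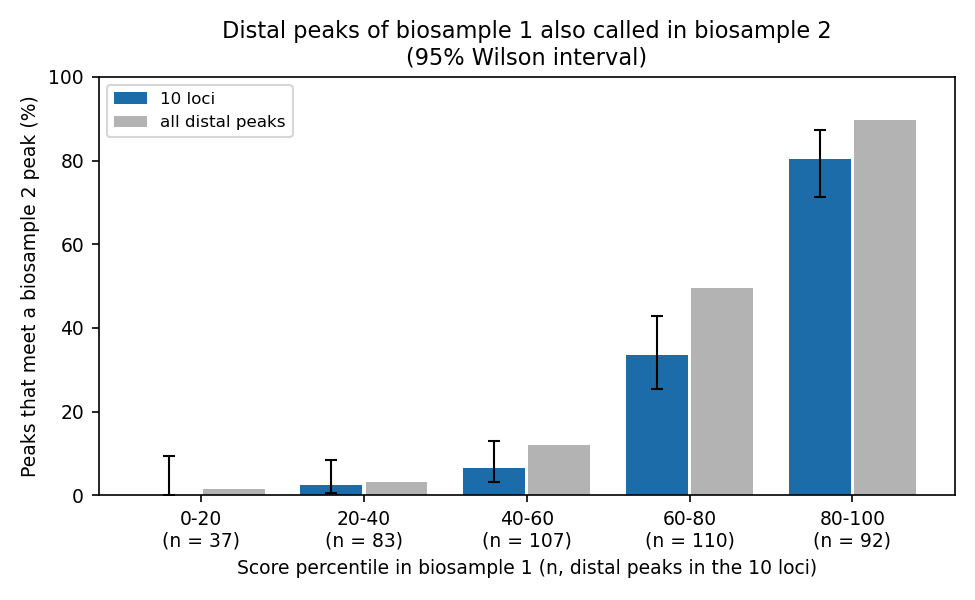
Share of biosample 1 distal peaks that meet a biosample 2 peak in percent (vertical axis) by score percentile in biosample 1 (horizontal axis, n is the number of distal peaks in the 10 loci). Blue bars are the 10 loci with 95% Wilson intervals and grey bars all distal peaks. The blue bars at percentiles 60 to 80 and 80 to 100 stand at 33.6% and 80.4%, below the grey bars at 49.5% and 89.7%.

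In biosample 1 the widest hotspots of the 10 loci lay at Amotl2 and Ccn1. In biosample 2 they lay at Ccn1 (1796 bp) and Tead4 (1740 bp), and the widest at Amotl2 was 955 bp. The 10 loci held 360 hotspots in biosample 1 and 148 in biosample 2, which covered 11.9% and 3.30% of their length. All hotspots of the lists covered 107.902 Mb and 30.427 Mb, and the covered share of other gene loci was not computed. The median width over each whole list was 272 bp and 273 bp. One hotspot of biosample 1 at Amotl2 (chr9:102716866-102727269) was 10404 bp wide, started near the most upstream start site and held 18 peaks. Only 9 of 246557 hotspots in that list were at least as wide, this one included. In biosample 2 the same stretch held 5 hotspots of 1636 bp in all and 5 peaks.

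The widest hotspot at Ccn1 (chr3:145647495-145654006) covered most of the gene and its upstream flank in 6512 bp, and 55 hotspots in the list were at least as wide, this one included. Here biosample 2 kept more of the region, with 6 hotspots of 5043 bp in all and 11 peaks against 13. The widest hotspots of Tead4 and Lats2, of 3271 bp and 2817 bp in biosample 1, lay at their start sites too. At Ccn2 the promoter hotspot of biosample 1 was 869 bp wide and the widest in the locus 887 bp, so the pair of CCN genes differed in width as they did in promoter percentile.

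Other genes of the pathway, listed for their roles, mostly had promoter peaks in both lists too, beside the 51.9% of all genes. Of 21 Hippo kinases and upstream regulators, 19 did. The highest percentiles were those of Nf2, the scaffold protein merlin (scores 147 and 102), the kinase Taok3 (146 and 99) and the LATS activator Mob1a (145 and 84). For Wwc1 (KIBRA) the only promoter peak was in biosample 1 (score 76), and the atypical cadherin Dchs1 had none in either list. Of the 4 TEAD cofactors of the vestigial-like family, Vgll4, which competes with YAP for TEAD (147 and 86), and Vgll3 (140 and 70) had promoter peaks in both lists. Vgll1 and Vgll2 had none.

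Of 18 other YAP and TAZ target genes, 14 had promoter peaks in both lists. The highest were Ptpn14, a phosphatase that binds YAP (145 and 75), the stress gene Gadd45b (141 and 82) and the ankyrin repeat gene Ankrd1 (141 and 69). Igfbp3, Crim1 and Foxf2 had one only in biosample 1 (scores 50, 121 and 98), and Nt5e in neither. A TEAD core was present in a biosample 1 promoter peak of 6 of the 17 targets with such a peak, 6 of 20 kinases and regulators and both cofactors, beside 23.4% of all genes and 9 of 10 members. In biosample 2 the counts were 5 of 14, 6 of 19 and 2 of 2, beside 14.5% of all genes and 7 of 9 members. These shares of all genes are not weighted to the number of promoter peaks per gene.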

How the data were processed

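DNase-seq peak and hotspot lists of 2 3T3-L1 biosamples were used, each called by the authors on 2 pooled libraries in mm10, per the labels. The names of aligner and peak caller are not given in the sources used here. For ranking, the deposited peak score, with a maximum of 150, was used only within its list, since no source says how the authors computed it. Hotspots carry a deposited −log10 q value from 1.3 to a cap of 100, so they were not ranked. The labels number the biosamples as biological replicates 1 and 2. Replicates may still be technical, since nothing says that the biosamples were separate cultures, and depth per library was unknown.

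The members and lists were chosen with earlier results of these data known. Genes came from GENCODE M21, with 27 repeated records merged, and sequence from GRCm38.p6, which has the chromosome sequences of mm10. Peaks on chromosomes 1 to 19, X and Y were classed as promoter (within 1000 bp of a start site of the gene), neighbour promoter or distal, and a peak was called shared when at least 1 bp met a peak of the other list. Motifs were searched on both strands of the 150 bp window: CATTCC (TEAD), TGAGTCA (AP-1), TGTGGTT (RUNX), TGACGTCA (CRE), GGGCGG (SP/KLF), the SRF CArG box and the CTCF consensus, each counted whatever other motif it overlaps. Shares have 95% Wilson intervals for counting error only. No test was made, since each biosample gives 1 list.

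Named were all members, with their strongest promoter and distal peaks, their strongest shared distal peak with CATTCC and their widest hotspot. In each pathway list the 3 genes of highest mean promoter percentile were named, and every gene not called in both lists. The promoter sequences of Tead3, Yap1 and Wwtr1 and the choice among the distal ones were made after their values were seen, as was every other site, hotspot or gene named beyond that rule. The overlap of intervals and the search for the TEAD core were tested on simulated data. The work used Python 3.11.15, numpy 2.4.6, pandas 2.3.3, scipy 1.17.1 and matplotlib 3.10.9.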

Additional observations from a re-analysis of the deposited data

How the results depend on the processing

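With the stronger 50% of each list, distal peaks in the 10 loci fell to 252 in biosample 1 and 72 in biosample 2, and 7 genes in place of 9 had promoter peaks in both lists (46.2% of all genes in place of 51.9%). When biosample 1 was limited to its strongest peaks, as many as biosample 2 has, 63.1% of its distal peaks in the loci recurred (76.8% of all distal peaks), and 85.7% of those of biosample 2 did. An overlap of 50% of the shorter peak gave 88.1% for biosample 2, and a meeting with a peak or hotspot gave 100%. For these settings the share over all distal peaks of biosample 2 was not computed. The biosample 2 values therefore do not show whether the loci differ from the rest of the list. Hotspots at the cap numbered 192 in biosample 1 (53.3%, against 49.4% of all hotspots in the list). In biosample 2 they numbered 57 (38.5%, against 42.8%). In looks added after the data were seen, the count of genes with a TEAD core in a promoter peak was 7 to 9 of 10 in biosample 1 (7.83% to 19.5% of all genes with a promoter peak). In biosample 2 it was 7 of 9 or, with the stronger 50%, 6 of 7 (8.85% to 11.1% of genes), except with the strongest promoter peak of each gene, which gave 4 of 9 (7.06%). No paired analysis was possible because the libraries of each biosample were pooled into 1 list, and for the same reason no library could be left out. Unknown depth limits every statement on a peak called in 1 list alone.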
